A study of Peromyscus maniculatus and Peromyscus polionotus and Peromyscus maniculatus x Peromyscus polionotus with 18 samples.

Results

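Among 9726 genes that could be read both in the brains of the parental species and, allele by allele, in their hybrids, 23 had a species difference and an allele difference that pointed in opposite directions. For 6 of them *Peromyscus polionotus* brains held more transcript than *P. maniculatus* brains, while hybrid brains used the polionotus copy less. For the other 17 the polionotus brains held less, while the polionotus copy gave most of the allele counts in every hybrid animal. The genes were chosen by that pattern. A gene had to be in both tables with a mean of at least 100 allele counts per hybrid animal, a log2 ratio of the species means (each with 1 TPM added) of at least 0.5 in either direction, and a polionotus share on the other side, below 41% or above 59%, in all 6 animals. Polionotus share here means how much of a gene's allele counts, in percent, the polionotus copy gave. TPM is a transcript level scaled by length and to a common library total. Since both contrasts chose the genes, their values are given below as descriptions, without tests.

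The series measured whole-brain RNA of adult males, 50 to 80 days old, in 18 libraries. *P. maniculatus*, which digs short burrows, *P. polionotus*, which digs long ones with an escape tunnel, and their F1 hybrids were each killed after a burrowing trial or after a control trial, with 3 libraries in each of the 6 groups. All animals had been through 2 earlier trials in the sand-filled enclosures. The hybrid labels name *P. maniculatus* before *P. polionotus*, but do not say which parent was the mother. The order is the same for all hybrids, so the species of a copy and the parent it came from cannot be told apart from these labels. The 12 parental libraries were deposited as TPM and the 6 hybrid libraries as allele counts, of which each animal had between 11415175 and 53906964 in all. On the second principal component of the parental libraries (7.47% of the variance) maniculatus control replicate 3 and polionotus burrowing replicate 3 and control replicate 2 stood apart, with scores of 12.6 to 20.5 where the other 9 had -13.2 to 1.61. Without them 18 of the 23 genes met the rule, and Acta2, Antxr1, Aurka, LOC102915396 and Smim8 did not. Neuronal markers (Snap25, Syt1, Rbfox3 and 4 others) summed to 1496 to 1687 TPM in maniculatus libraries and 1427 to 1610 TPM in polionotus libraries. By limma at an adjusted p below 0.05, 0 of these 7 were higher and 2 lower in *P. polionotus*. Of 3 oligodendrocyte precursor markers 3 were higher, and of 5 microglial markers 2 were higher and 1 lower. Of all genes tested 52.4% were called.

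As background, the RNA level of a gene depends on sequence near the gene itself, such as its promoter and enhancers, and on diffusible factors made elsewhere in the genome. A difference between species can come from either source. In an F1 hybrid both copies share 1 nucleus and the same factors. A difference between the copies then reflects sequence linked to them or, at imprinted genes, the parent each copy came from. Genes whose copies differ one way while the species differ the other way are therefore listed in such studies as candidates for compensation, in which linked sequence and diffusible factors act against each other. Allele counts can hold only reads that could be given to a parent, while TPM need no such assignment. The sources used here do not say which reads entered either. Whether either species' reads aligned better was not tested.

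The pattern was rare next to agreement. Of the 703 genes past the threshold with more transcript in *P. polionotus*, 236 had a polionotus share above 59% in all animals and 6 had one below 41%. Of the 373 genes with less transcript there, 103 had a share below 41% and 17 one above 59%. A share past a threshold was not equally common in both directions: 10.4% of the 9726 genes lay above 59% in all animals and 4.25% below 41%, while 11.1% passed the species threshold. When the counts were recentred so that both alleles had equal totals in each animal, 25 genes met the rule, 13 with more and 12 with less transcript in *P. polionotus*, and 18 of the 23 were among them. The split between directions thus moved with the centring of the shares, which in the deposited counts were 52.6% to 53.1% polionotus per animal.

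**Figure D1:**
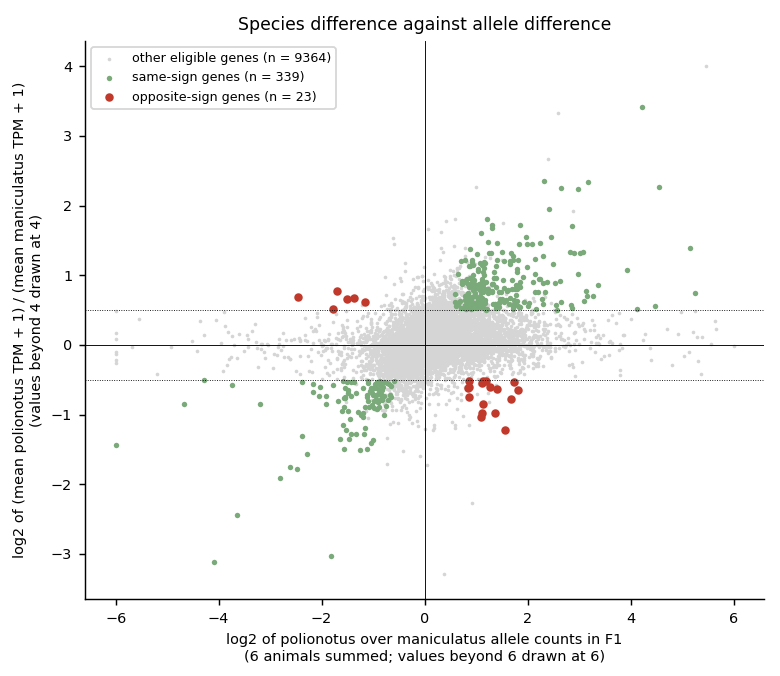
Each point is 1 of 9726 genes, with the log2 ratio of polionotus over maniculatus allele counts in the hybrids on the x axis and the log2 ratio of the species' mean TPM on the y axis; dotted lines mark a ratio of 0.5 in either direction. The 23 opposite-sign genes (red) lie in the upper left and lower right, away from the 339 genes whose species and allele differences have the same sign (green).

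The 6 genes with more transcript in *P. polionotus* and a low polionotus share included 2 near neighbours, Pgm2l1 and Lipt2. Pgm2l1 makes glucose bisphosphate, a cofactor of sugar phosphate metabolism that is abundant in brain. In the 6 maniculatus libraries it ranged from 41.2 to 53.4 TPM with a median of 50.6, and in the 6 polionotus libraries from 72.6 to 82.2 TPM with a median of 79.6. Every polionotus library was above every maniculatus library, with a difference of 0.68 on the log2(TPM + 1) scale (SE 0.06). In the hybrids the polionotus copy gave 26.7% to 29.3% of the counts, with a median of 27.8%, out of 2261 to 11276 counts per animal. This was the narrowest range of shares among the 23 genes.

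Lipt2 is the mitochondrial enzyme that starts the making of lipoic acid, a cofactor of the large dehydrogenase complexes. It stood at 24.1 to 37.3 TPM in *P. maniculatus*, median 27, and at 31.6 to 64.5 TPM in *P. polionotus*, median 51.6. The ranges overlapped through 1 polionotus library, control replicate 3, at 31.6 TPM, below the maniculatus library at 37.3 TPM. The log2 difference was 0.76 (SE 0.15). Its polionotus share lay between 18.8% and 32.2%, median 24.1%, on only 69 to 340 counts per animal. In the RefSeq gene order of *P. maniculatus* a single protein-coding gene lies between Lipt2 and Pgm2l1.

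Tctex1d2, now also called Dynlt2b, is a light chain of the dynein motor that carries cargo back along cilia. It had the most extreme share of the 23 genes, with 11.8% to 17.9% of counts on the polionotus copy and a median of 14.9%. Its TPM nevertheless ran higher in *P. polionotus*, at 17 to 18.3 with a median of 17.4, than in *P. maniculatus*, at 8.85 to 13.2 with a median of 10.3. No library of either species reached the other's range, and the log2 difference was 0.70 (SE 0.07). Adding the sizes of its opposing differences, the species log2 ratio exceeded the allele log2 ratio by 3.16, the widest gap of all 23.

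Hopx, Tp53i11 and LOC102915396, the rest of this direction, showed the same arrangement. Hopx, a small homeodomain protein without DNA contact that astrocytes and neural stem cells express, stood at 35.3 to 41.1 TPM in *P. maniculatus* (median 37.8) and 50.5 to 66.4 TPM in *P. polionotus* (median 62.9). Its share was 21.3% to 33.7% (median 24.6%). Of 6 astrocyte markers 0 were higher and 2 lower in *P. polionotus* by limma at an adjusted p below 0.05, where 52.4% of all genes tested were called, and their summed level was 1381 to 1719 TPM in the maniculatus libraries and 1252 to 1422 TPM in the polionotus ones. Tp53i11, a gene induced by p53, had a median of 43.4 TPM (40.1 to 49.3) against 69.8 TPM (59.4 to 72.1) and a median share of 31.6% (26.1% to 33.6%). LOC102915396, which the RefSeq table names Clba1 for its clathrin-binding motif, had a median of 43.1 TPM (42.4 to 47.1) against 61.4 TPM (55.4 to 74.7) and a median share of 22.8% (19.9% to 26%). The species ranges of these genes did not overlap. The log2 difference of LOC102915396, 0.51 (SE 0.06), was the smallest of the direction, and the gene did not meet the rule with quantile or median scaling.

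Among the 17 genes with less transcript in *P. polionotus*, several encode enzymes of heme, lipid and purine metabolism. Uros makes uroporphyrinogen III on the path to heme. It was at 8.2 to 9.51 TPM in *P. maniculatus* (median 8.51) and at 3.3 to 4.1 TPM in *P. polionotus* (median 3.8), without overlap and with a log2 difference of -1.04 (SE 0.06). The polionotus copy nevertheless gave 66% to 70.7% of its counts in the hybrids, median 68.6%. Uros was 1 of 2 genes that met the rule at a species log2 ratio of 1.

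Sptlc2, a subunit of the enzyme that starts sphingolipid synthesis, was at 7.46 to 11.4 TPM in *P. maniculatus* (median 9.64) and 3.78 to 4.8 TPM in *P. polionotus* (median 4.48). The log2 difference was -0.97 (SE 0.08), and no libraries overlapped. Its polionotus share was 68.3% to 74.8%, median 70.1%, on 366 to 2283 counts. Pnp, which splits purine nucleosides, was at 73.3 to 97 TPM against 50 to 57.4 TPM, with a log2 difference of -0.60 (SE 0.07) and shares of 61.4% to 66.6%. Serac1, needed for remodelling of phosphatidylglycerol at contacts between mitochondria and endoplasmic reticulum, was at 12.5 to 18 TPM against 9.06 to 10.4 TPM, with a log2 difference of -0.60 (SE 0.08) and shares of 67.8% to 73.9%. Hhatl, a relative of the acyltransferase that acts on hedgehog proteins, had 39.3 to 50.5 TPM against 22.9 to 29.4 TPM, a log2 difference of -0.74 (SE 0.08) and shares of 59.2% to 68.2%. The species ranges of Pnp, Serac1 and Hhatl did not overlap.

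Tmem229a, a membrane protein of little-known function, was the most abundant of the 23 genes. Its TPM ran from 284 to 326 in *P. maniculatus* (median 292) and from 135 to 159 in *P. polionotus* (median 153). The log2 difference was -0.98 (SE 0.05) and the shares were 64.4% to 71.9% (median 69.2%). With 3.47 counts per animal for each TPM of parental level it also had the fewest allele counts for its level among the 23. That ratio depends on transcript length and on how many differences between the species the transcript holds. Its median was 46.1 over the 23 genes and 71.4 over the 9726, and 6 of the 23 lay below the lower quartile of 27.3. Whether few informative reads bear on the shares was not tested.

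Ackr4, a receptor that takes up chemokines without signalling, showed the largest species difference of the 23. It was at 13.2 to 28.4 TPM in *P. maniculatus* (median 18.2) and at 6.41 to 8.82 TPM in *P. polionotus* (median 7.53), a log2 difference of -1.19 (SE 0.14) without overlap. Its share was 65.9% to 79.9% (median 76.8%). Ackr4 overlaps Acad11, an acyl-CoA dehydrogenase gene, in the RefSeq annotation. Acad11 itself had more transcript in *P. polionotus* (5.75 against 3.25 TPM) and a polionotus share of 66.9% to 80.9%, so the overlapping genes shared the side of their allele shares and not the sign of their species difference. The library kit keeps the strand of a transcript, but no source used here says whether the counting used it, so reads of such partners may not have been told apart.

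Cald1, Acta2 and Antxr1 belong to contractile and matrix-bound cells such as those of vessel walls and meninges. Cald1, which binds actin, was at 7.56 to 12.9 TPM in *P. maniculatus* (median 10) and 4.64 to 6.08 TPM in *P. polionotus* (median 5.46), a log2 difference of -0.77 (SE 0.12). Its shares, 74.3% to 78.4%, were close together. Acta2, smooth muscle actin, was at 3.93 to 7.28 TPM against 2.23 to 4.08 TPM, ranges that overlapped, with shares of 68.2% to 90.7% on 75 to 425 counts; it has near-identical paralogs, so its reads are uncertain. A marker list of mural and meningeal cells, put together after these genes were seen, had 0 of 11 tested genes higher and 3 lower in *P. polionotus* by limma, where 52.4% of all genes were called. The list summed to 116 to 178 TPM in maniculatus libraries and 106 to 131 TPM in polionotus libraries, and endothelial markers summed to 153 to 203 and 110 to 186 TPM. In these bulk samples fewer cells of a type and less RNA per cell cannot be told apart, and the part of these cells in the differences was not tested.

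Antxr1, a cell-surface receptor for collagen, had 2 clearly separate levels of allele share. In burrowing replicate 2 and control replicates 1 and 2 the share was 89%, 87.8% and 87.6%. In burrowing replicates 1 and 3 and control replicate 3 it was 59.2%, 61.8% and 62.2%. The 95% Wilson intervals of the higher 3 animals (84.3% to 90.6% at their widest) and of the lower 3 (56.6% to 64.7%) stayed apart. Of the 6 readable neighbours, Anxa4, the farthest of the 3 on its side, was higher in the same animals, at 78.2%, 76.7% and 75.9% against 62.3%, 55.3% and 55.7%. The nearer Gfpt1 (45.6% to 56%) and Nfu1 (41.7% to 52.4%) did not show that split, nor did Arhgap25, Aplf or LOC102909279 on the other side. The split crossed the trials. Control replicates 1 and 2 were also the hybrids of lowest depth, with 11415175 and 12595542 allele counts, and burrowing replicate 2 had 28994982; the part of depth was not tested. Antxr1 was also the gene nearest to both limits of the rule, with 2.03 to 4.43 TPM in maniculatus libraries and 1.84 to 1.97 TPM in polionotus libraries.

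Dbf4, Aurka and Prpf18 act in the nucleus or at the spindle. Dbf4, the partner of the kinase that fires replication origins, was low in this adult tissue, at 2 to 2.9 TPM in maniculatus libraries and 0.81 to 1.09 TPM in polionotus libraries (log2 difference -0.84, SE 0.07), with shares of 65.2% to 71%. On so low a level the pseudocount matters: the log2 ratio of the means was -1.32 with 0.1 TPM added and -0.33 with 5. Aurka, a kinase of mitosis, was at 5.36 to 9.67 TPM against 4.39 to 5.47 TPM, and the species overlapped; its shares were 59.4% to 71.1%. Aurka overlaps Cstf1, a factor of 3' end processing, whose share was 58.9% to 65.7% at 27.4 and 30.1 mean TPM in *P. maniculatus* and *P. polionotus*. Prpf18, a factor of the second step of splicing, was at 6.1 to 10.4 TPM against 4.62 to 6.14 TPM, with a narrow overlap, and its shares were 65.1% to 72.3%.

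Among the genes of membranes and of unclear role, Nkain4, a partner of the sodium pump, had medians of 16.3 TPM in maniculatus libraries and 10.4 TPM in polionotus libraries and shares of 62.2% to 66.1%. Smim8, a small membrane protein, had medians of 21.4 and 15.2 TPM and shares of 65.6% to 71.2%. Tor3a, of the torsin family of ATPases, had medians of 3.71 and 2.33 TPM and shares of 60% to 77%. Its lowest share came from 50 counts (control replicate 1, 95% Wilson interval 46.2% to 72.4%), so that animal's side of the 59% threshold was not settled by its depth. Of all 138 shares of the 23 genes, 15 had an interval that reached past the threshold, in Antxr1, Aurka, Dbf4, Hhatl, Lipt2, Nkain4, Pnp and Tor3a. LOC102909145, a gene the RefSeq table names only by an open reading frame (C3H2orf81), had medians of 10.6 and 6.41 TPM with overlapping ranges.

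LOC102909145 also showed animals apart. Its polionotus share was 87.3% and 86.7% in control replicates 1 and 2 and between 73.4% and 78.5% in all others. These controls were the animals of lowest depth, and the part of depth was not tested. The same pair of animals stood high at the next gene, Dctn1 of the dynactin complex, with 71.9% and 72.2% against 44.9% to 45.6%. At Slc4a5, a bicarbonate transporter, they had 80.2% and 86% against 47.9% to 49.8%. The adjoining gene on the other side, Wdr54, which overlaps LOC102909145, had 48% to 51.3% in all 6. Wdr54 was at 103 mean TPM in *P. maniculatus* and 77.8 in *P. polionotus*, against 11.2 and 6.78 for LOC102909145. Both thus had less transcript in *P. polionotus*, and whether reads of Wdr54 entered the values of LOC102909145 was not tested. Beyond Wdr54 on that side Rtkn was again high in the pair, with 84.6% and 72.6% against 28.1% to 45.4%. Both high animals were controls and the third control, at 75.4%, was not among them.

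**Figure D2:**
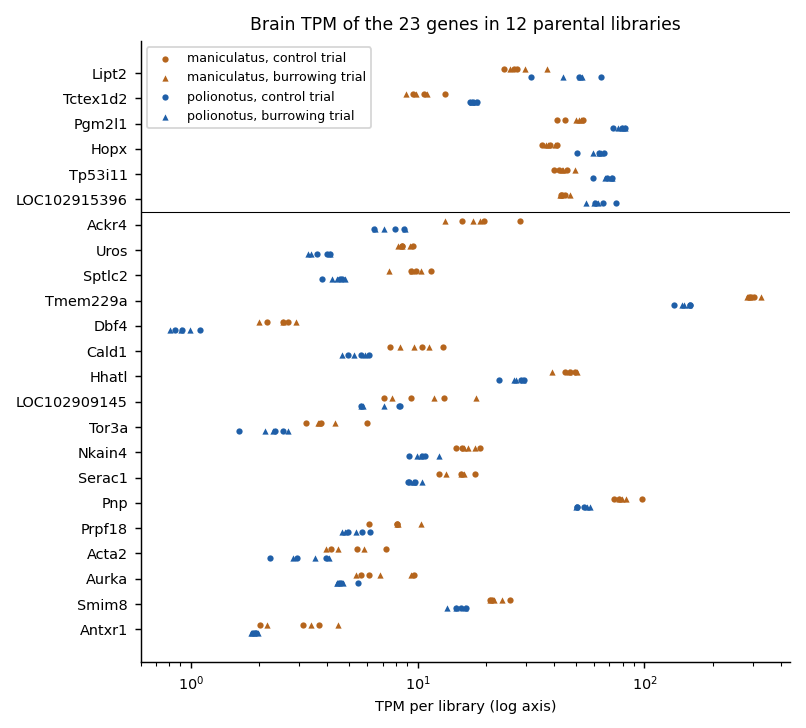
TPM per library on a log axis for the 23 genes, with maniculatus libraries in brown, polionotus libraries in blue, circles for control and triangles for burrowing trials. Above the line the polionotus points lie to the right and below it to the left; ranges overlap for Lipt2, LOC102909145, Prpf18, Acta2 and Aurka.

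**Figure D3:**
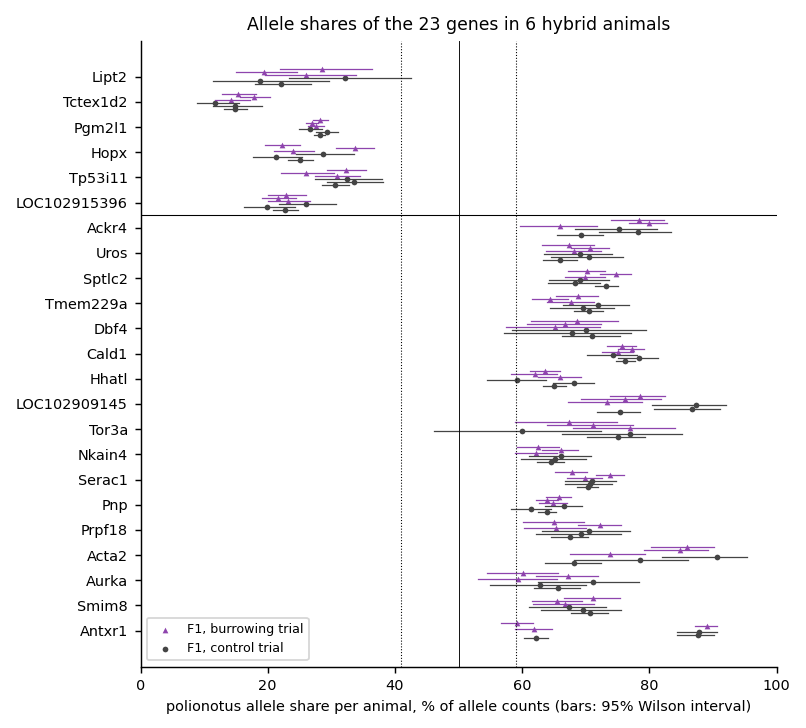
Polionotus share of allele counts per hybrid animal (percent, x axis) with 95% Wilson intervals, which cover counting error only; dotted lines mark 41% and 59%. Tctex1d2 lies farthest left, and Antxr1 falls into 3 animals near 60% and 3 near 88%.

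Over the 23 genes, 18 had species ranges that did not overlap, 5 of 6 in one direction and 13 of 17 in the other. Among the 9726 genes the figure was 32.9%, and the rule itself favours separate ranges. The species log2 ratio exceeded the allele log2 ratio by 1.78 to 3.16 in the 6 genes and the difference was -2.79 to -1.37 in the 17. With 1 TPM added to the species means, which shrinks the ratio of low genes, the allele log2 ratio was the larger in size in all 23. With 0.1 TPM added, the species ratio was the larger for Dbf4 (-1.32) and Uros (-1.20). Between animals the SD of the share had a median of 2.59 percentage points, next to 3.32 over the 9726 genes and 2.94 over the 339 same-sign genes, and it was above 5 in 6 genes. Low spread is favoured by asking for 1 side in all 6 animals.

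Around the thresholds the species ratios lay close together, while the counts and the low shares left a gap. LOC102915396 entered at a log2 ratio of 0.52, while Med12 stayed out at 0.49 and Slc9b2 at 0.48. Med12, with a polionotus share of 0.172% to 0.651%, lies on the X, of which males carry 1 copy. The 32 readable X genes had a median share of 10.5%, with a range of 0.0148% to 80.8%. A male's X comes from his mother, and this median lies on the maniculatus side. Which species the mother was, which the labels do not say, was not tested further. From 1 copy all counts of a gene should fall on the same allele. Intermediate shares therefore put the allele assignment or the placement of those X genes in doubt. Whether misassigned reads also shifted the shares of the genes that met the rule was not tested. Antxr1 (-0.51) and Smim8 (-0.52) were inside on the other side, and Tmem115 (-0.47) and Wdr91 (-0.45) outside. On the share, Hopx entered with a highest value of 33.7%, whereas Kdelr3 and Slc5a6 missed with 41% and 41.9%. Hhatl entered with a lowest value of 59.2%, and Tmem253 and Cdk10 missed with 57.1% and 56.9%. On the counts, Tor3a (145 per animal) and Lipt2 (175) were the lowest inside, and Srpx2 (90.2) and Pld6 (85.3) the highest outside.

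The genes' surroundings were read from RefSeq gene order, which the rule had not used, although it had chosen the genes by their own shares. All 23 could be placed, on 12 chromosomes, and 0 lay on the X, which held 32 of the 9726 genes. For each gene the 3 nearest readable genes on either side were taken, 131 in all besides the 23 themselves. Of the 101 neighbours of the 17 genes with a high polionotus share, 33 (32.7%) also had a share above 59% in all 6 animals, where 10.4% of the 9726 genes did. Of the 30 neighbours of the 6 genes with a low share, 2 (6.67%) lay below 41% in all animals, against 4.25%. Neighbours are not independent of each other, so these shares are descriptions without a test. The neighbours of other genes chosen for such a share were not read. Whether these figures are particular to the 23 genes was therefore not tested.

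The neighbours did not share the species difference in the same way. A species log2 ratio past 0.5 was met by 12 of the 131 (9.16%), close to the 11.1% of all readable genes. Among the 101 neighbours of the 17 genes, 7 had more and 2 had less transcript in *P. polionotus*. Over all readable genes 7.2% had more and 3.8% had less. The surroundings of Smim8 were the most one-sided, with all 6 neighbours above 59% in every animal and mean shares of 65.6% to 91.5%. Mob3b (91.5%), Akirin2 (80.8%) and Rars2 (77.6%) were among them, and none of the 6 passed the species threshold. Hhatl, Prpf18 and Serac1 each had 4 such neighbours of 6, among them Ccdc13 (91.3%) beside Hhatl, Frmd4a (86.6%) beside Prpf18 and Tulp4 (79.7%) beside Serac1. Cald1 had 3, with Bpgm (91.6%) and Wdr91 (88.5%) on its sides, and Ackr4 had 3. In contrast, 7 of the 23 genes, among them Hopx, Tctex1d2 and Nkain4, had 0 neighbours past the threshold on their own side, with Lipt2 and Pgm2l1 counted as neighbours of each other. All 6 neighbours of Tctex1d2 were higher in burrowing replicate 1 and control replicates 2 and 3 than in the other hybrids. At Pcyt1a, for example, those animals had 92.8% to 95.4% and the others 39.7% to 46.5%. Tctex1d2 itself did not split that way, with 15.3%, 14.9% and 14.9% against 11.8% to 17.9%. Next to Nkain4, with a mean share of 64.4%, lay Birc7 with 17.9%.

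On the other side of the comparison, Pold3, a subunit of DNA polymerase, sits beside Lipt2 and came close to the pair. Its log2 ratio was 0.50 and its share 39.4% to 42%, so that Lipt2, Pgm2l1 and Pold3 pointed the same way in both measures. The next genes on the far side of Pgm2l1, P4ha3 (52.2%) and Ppme1 (50.5%), had even shares and log2 ratios of 0.05 and 0.13. Overlap with another annotated gene was found for 9 of the 23 (39.1%), next to 34.6% of the 9289 placed genes.

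**Figure D4:**
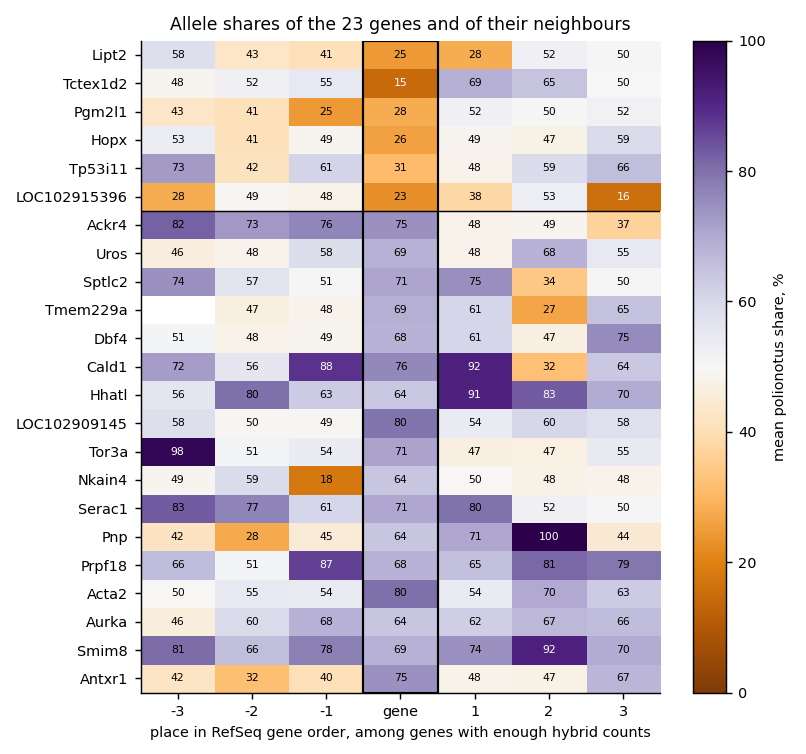
Mean polionotus share (percent) over 6 hybrid animals for each of the 23 genes (boxed column) and the 3 nearest readable genes on either side in RefSeq order. Purple marks shares above and orange below 50%. The row of Smim8 is purple throughout. The neighbours of Tctex1d2 have mean shares of 48.5% to 68.8%, which average over animals that differ, as at Pcyt1a (39.7% to 95.4%).

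Of the name-based lists (ribosomal, mitochondrial ribosomal, respiratory chain, zinc finger, solute carrier, proteasome, glutathione transferase, keratin and tubulin, ubiquitin and interferon-response genes, and genes with placeholder names) 0 held a member, and the transmembrane protein names held 1, Tmem229a, of 133 readable genes. A list of known imprinted genes held 5 readable genes (0.0514%) and 0 of the 23. Each list held only 0.0309% to 2.18% of the 9726 genes, so these counts say nothing particular about the 23. The median level of the 23 genes was 13.2 TPM and 767 allele counts per animal, against 18.5 TPM and 1230 counts over the 9726. The 339 same-sign genes had medians of 10.2 TPM and 534 counts.

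The trial was not part of the rule, so the comparisons of burrowing with control animals are a test on these genes. None of the 23 was called in any of 5 such comparisons at a Benjamini-Hochberg adjusted p below 0.05 over all genes. In *P. maniculatus* limma called 0 of 23, where 0.00696% of 14366 genes were called, and 0 of 23 had an unadjusted p under 0.05 (2.03% of all genes did). In *P. polionotus* limma called 0 of 23 (0% of all genes), and 0 passed unadjusted at 0.05. For the difference between the species' responses it called 0 (0% of all genes), and 1 passed unadjusted (2.89% of all genes did). In the hybrids edgeR called 0 of 23 on counts summed over alleles (0% of 11928 genes) and 0 on the allele ratio (0.226%), and 0 of the 23 passed unadjusted at 0.05 in either (0.755% and 2.23% of all genes did). Asking for 1 side of the share in all 6 animals favours genes whose share varies little. DESeq2 called 0 of the 23 on summed counts (0.0168% of all genes) and 0 on the allele ratio (0.503%). The log2 differences of the 23 genes ran from -0.31 to 0.28 in *P. maniculatus*, from -0.23 to 0.16 in *P. polionotus* and from -0.36 to 0.25 in the hybrids. Their median sizes, 0.06, 0.07 and 0.13, were near those over all genes, 0.05, 0.07 and 0.13.

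The splicing factor Prpf18 had the smallest p of the 23 in *P. maniculatus* and for the difference between the species' responses; in *P. polionotus* it was that of LOC102915396 (log2 difference -0.17, SE 0.08, limma adjusted p = 0.998). In *P. maniculatus* it was at 8.07, 8.11 and 6.1 TPM in controls and 8.14, 10.4 and 8.21 TPM after burrowing. In *P. polionotus* the controls had 4.94, 6.14 and 5.7 TPM and the burrowing animals 4.77, 4.62 and 5.34 TPM. The groups were just separate in *P. maniculatus*, the only 1 of the 23 genes there, where 7.23% of all genes were, and they overlapped in *P. polionotus*, where 0 of the 23 and 6.45% of all genes were separate. The response in *P. polionotus* was lower by a log2 difference of -0.39 (SE 0.17), which did not pass (limma adjusted p = 0.992, and 0.764 to 1 over its alternatives).

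In the hybrids the summed counts of the 23 genes overlapped between trials in every case, where 2.88% of all genes were separate. Antxr1 had the smallest p (log2 difference 0.25, SE 0.15, edgeR adjusted p = 0.965), followed by Tmem229a (0.23, SE 0.15) and Pgm2l1 (0.15, SE 0.12) at the same adjusted p. The polionotus share of Tmem229a was 71.9%, 69.6% and 70.5% in controls and 68.7%, 64.4% and 67.7% after burrowing, the only 1 of the 23 with separate groups, where 7.95% of all genes were. The difference in its allele log2 ratio, -0.25 (SE 0.11), did not pass by edgeR (adjusted p = 1). For LOC102909145, whose share was high in 2 control animals, the difference was -0.63 (SE 0.36, edgeR adjusted p = 1). Libraries of a group are treated as separate animals, as the protocols speak of individuals, so these p-values measure the spread between 3 animals per group.

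**Figure D5:**
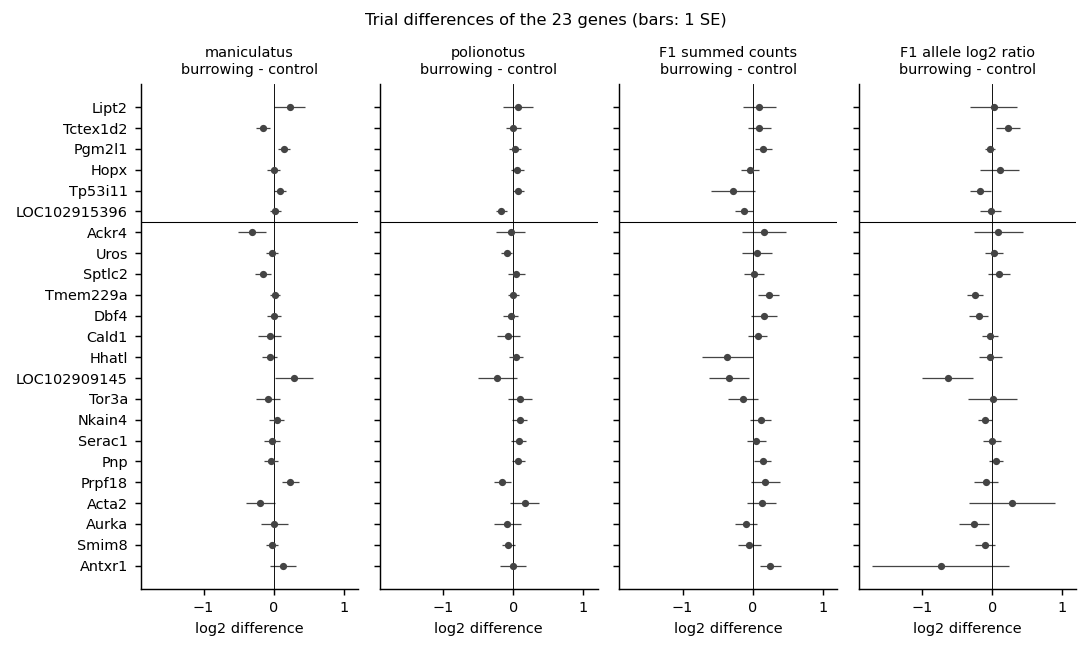
Log2 differences between burrowing and control animals for the 23 genes (points) with 1 SE (bars), in *P. maniculatus*, *P. polionotus*, hybrid summed counts and hybrid allele ratios. Points lie on both sides of 0 in each panel, from -0.36 to 0.28 in the first 3 panels, and the widest bar belongs to the allele ratio of Antxr1.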

How the data were processed

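Whole-brain libraries of 12 parental and 6 hybrid males were grouped by species or cross and trial from the sample titles. The authors deposited TPM for the parental libraries and whole-number counts per gene and allele for the hybrids, with a smallest count of 2. Reads were aligned with STAR 2.4.2a, per the submitters' processing notes. The sources used here do not give the build, the annotation, the allele assignment or the TPM method. In the column names BW and PO were read as *P. maniculatus* and *P. polionotus*, as the hybrid labels pair them. A TPM row that names no gene (0.789% to 2.48% of a library) was left out. Rows whose names had become dates (27 and 19) were tested and could not be members.

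Symbols were matched without case, giving 10640 genes in both tables. limma 3.58.1 (R 4.3.3, mean trend) was fitted to log2(TPM + 1) of the 14366 genes that averaged 1 TPM or more, with 1 mean per group over 12 libraries; fold changes on this scale understate changes of low genes. edgeR 4.0.16 quasi-likelihood tests were run on summed hybrid counts (TMM, filterByExpr) and on allele counts with the animal as a block and a minimum mean of 20 counts; the SE of edgeR values was taken from the F statistic. DESeq2 1.42.0 was an alternative. Tests were two-sided and adjusted by Benjamini-Hochberg over all genes. They were also run on simulated data with planted changes larger than any trial difference of the 23 genes. That run does not bear on smaller changes. TPM keep no depth. Wilson intervals (95%) cover counting error only. Gene order, overlaps and names came from RefSeq assembly GCF_049852395.1 HU_Pman_BW_mat_3.1, which placed 95.5% of the 9726 genes; its coordinates are not given because the files' build is unknown. Tctex1d2 was placed under its later symbol, Dynlt2b. All 23 members were named, as the rule for named genes asked for lists this short. The members and lists were chosen with earlier results of these data known. Promoter motifs and protein similarity were not analysed here.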

Additional observations from a re-analysis of the deposited data

Results flagged for a closer look

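Each gene's 6 TPM values per species and 6 shares were searched for a library far from the rest, 69 sets in all, where chance flags about 1 in 20. In 1 set the gap passed Dixon's critical value: Aurka was at 5.47 TPM in polionotus control replicate 2, while the other 5 polionotus libraries lay between 4.39 and 4.70 TPM.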

How the results depend on the processing

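The count of 23 genes fell to 12 with a pseudocount of 5 TPM, to 14 with a minimum of 500 counts, to 9 with share thresholds of 33% and 67% and to 2, Ackr4 and Uros, with a species threshold of 1; each of these settings is stricter by construction. It rose to 34 with a pseudocount of 0.1 TPM. Med12, which lies on the X and so has 1 copy in males, entered there and in several other alternatives. The count was 21 to 29 when 1 replicate was left out, and stayed within 1.5 times under the other alternatives. Without the 3 parental libraries that stood apart on the second principal component (maniculatus control 3, polionotus burrowing 3 and polionotus control 2) it was 18, and without the 2 hybrid animals of lowest depth, which leaves fewer animals to satisfy, 34; both were chosen after seeing the data. Over the 27 alternatives that kept the thresholds, 10 genes met the rule each time: Ackr4, Cald1, Hopx, Lipt2, Pgm2l1, Sptlc2, Tctex1d2, Tmem229a, Tp53i11 and Uros. Acta2, Antxr1, Aurka and Smim8 left the set without maniculatus control replicate 3.

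None of the 23 genes was called in any of 73 alternative fits of the trial comparisons. Calls over all genes moved: in *P. maniculatus* 1 became 0 with a pseudocount of 0.1, 2 without a filter and 1 to 6 leaving out a replicate; in *P. polionotus* 0 became 3 without a filter and 0 to 2 leaving out a replicate; for the difference between responses 0 became 1 with a pseudocount of 5 or no filter and 0 to 2 leaving out a replicate. In the hybrids 0 became 2 with DESeq2 on summed counts, and for the allele ratio 27 became 60 with DESeq2 and 10 to 73 leaving out a replicate. The cause was not tested. With the replicate number as a replicate block the calls were 1, 0 and 0 in the parental comparisons and 0 in the hybrids; same-numbered libraries correlated at -0.584 to 0.254, so the numbers were not read as pairs. Depth limits the shares of Tor3a, Lipt2, Dbf4 and Acta2, which had as few as 50 to 75 counts in an animal.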
